A study of Homo sapiens with 6 samples.

Results

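The cytosolic cochaperones and the CCT chaperonin were followed as 39 genes in PC-3 cells treated with S-adenosylmethionine (SAM), the methyl donor of the cell. The genes comprised 13 J-domain proteins, 9 cofactors of HSP70, 9 cochaperones of HSP90 and the 8 subunits of CCT. They were taken by gene name from a table of raw counts for 57396 genes, which listed each of the 39 once. All 39 were also among the 15312 genes that passed the filter on low counts. PC-3 is an established human prostate cancer line that came from a bone metastasis. Its cells received 160 µM SAM or, per the sample labels, PBS for 5 days, with 3 libraries in each group. The labels of the series call the control a vehicle, and the text of the study gives another SAM dose for its cultures. The labels were followed here. All values come from this 1 line, and nothing in the labels says that the 3 libraries of a group came from separate cultures, so the p-values reflect only how far these libraries differ, and part of that may be technical.

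The libraries held between 9379258 (control 1) and 28995160 (SAM 1) gene counts. Levels are given as CPM, counts divided by the TMM-scaled library size, and in bulk RNA fewer cells of a type and less RNA per cell cannot be told apart. The epithelial marker EPCAM lay between 399 and 468 CPM in the 6 libraries, while KLK3, which encodes prostate-specific antigen, had 0 counts in all 6 together. Among markers of other cells, PTPRC (leukocytes), CD3E (T cells) and HBB (red cells) had 41, 3 and 0 counts in all, and COL1A1 (fibroblasts) lay between 16.6 and 18.8 CPM. Of the 5 epithelial and PC-3 markers, CDH1 fell by 0.45 and VIM rose by 0.52 on the log2 scale. VIM was low, with at most 14.95 CPM in any library. The keratins KRT8 and KRT18 and EPCAM differed little, with log2 fold changes of -0.10, -0.02 and 0.07 (adjusted p = 0.53, 0.94 and 0.66, edgeR). A pair of libraries, control 1 and SAM 2, stood apart in composition. The transcript CTD-2328D6.1 took 1.18% and 1.56% of their counts, against at most 0.0636% in the other 4. SAM 3 stood apart by base composition. For each library, the deviation of log2 CPM from the gene's mean over the 6 libraries was fitted on transcript GC content and length together. The GC slope was 0.12 per 10 percentage points in SAM 3, against -0.06 to -0.0012 in the other 5. The length slope of the same fit was -0.11 per doubling in SAM 3 and -0.05 in SAM 1. It was 0.0082 to 0.068 in the controls and 0.03 in SAM 2. The part of length in the results was not tested apart from the fit with both trends removed. Results are therefore also given without single libraries.

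HSP70 holds short hydrophobic stretches of unfolded proteins in a cycle of ATP hydrolysis. J-domain proteins bring clients to HSP70 and speed up hydrolysis, and BAG proteins and HSPBP1 release the nucleotide so that the client is let go. STIP1, also called HOP, links HSP70 to HSP90, where CDC37 loads kinases, AHSA1 speeds up the ATPase, PTGES3 (p23) holds the closed state, and the immunophilins FKBP4, FKBP5 and PPID bind steroid receptor complexes. CCT is a barrel of stacked rings in which actin and tubulin fold, and every ring holds each of its different subunits. Many of these genes are known targets of HSF1, the heat shock factor, which binds heat shock elements, alternating units of the letters GAA and TTC.

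The promoters of 4 members are shown here because they carry the letters of such elements and belong to members with large and small differences. Windows from 250 bases before to 50 bases after a transcription start were taken from RefSeq (GRCh38.p14), which held 34 of the 39 members and no entry for BAG4, CCT6A, FKBP4, ST13 and STUB1. The letters searched were 3 units in a row, GAANNTTCNNGAA or TTCNNGAANNTTC, and the shorter GAANNTTC or TTCNNGAA, where N is any base. These forms read alike on both strands, and each match of 3 units also contains matches of the shorter form. Capitals mark the matches of 3 units in the first 3 windows and the shorter matches in that of DNAJB1. All 4 sequences run 5′ to 3′ along the strand of the gene. The windows are chr11:90223000-90223299 (minus strand) for CHORDC1, chr9:33025023-33025322 (plus strand) for DNAJA1, chr7:157336754-157337053 (plus strand) for DNAJB6 and chr19:14518348-14518647 (minus strand) for DNAJB1.
CHORDC1: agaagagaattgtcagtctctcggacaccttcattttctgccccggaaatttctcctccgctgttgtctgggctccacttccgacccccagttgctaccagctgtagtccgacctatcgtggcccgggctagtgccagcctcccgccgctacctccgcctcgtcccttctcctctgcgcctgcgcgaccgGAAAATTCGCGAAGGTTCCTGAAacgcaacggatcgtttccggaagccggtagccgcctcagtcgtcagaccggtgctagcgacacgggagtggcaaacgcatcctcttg
DNAJA1: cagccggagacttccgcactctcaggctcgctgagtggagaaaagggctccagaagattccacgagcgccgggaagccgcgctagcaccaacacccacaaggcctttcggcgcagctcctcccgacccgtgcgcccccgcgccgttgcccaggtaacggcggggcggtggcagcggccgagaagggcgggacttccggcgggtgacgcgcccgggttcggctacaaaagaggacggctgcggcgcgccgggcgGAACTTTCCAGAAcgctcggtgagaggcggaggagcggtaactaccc
DNAJB6: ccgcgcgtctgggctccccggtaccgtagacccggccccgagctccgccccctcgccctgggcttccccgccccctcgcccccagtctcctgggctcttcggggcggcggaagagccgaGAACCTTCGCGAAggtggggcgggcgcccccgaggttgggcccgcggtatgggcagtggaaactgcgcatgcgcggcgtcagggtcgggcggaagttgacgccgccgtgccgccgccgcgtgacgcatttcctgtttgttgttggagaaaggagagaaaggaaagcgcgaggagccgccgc
DNAJB1: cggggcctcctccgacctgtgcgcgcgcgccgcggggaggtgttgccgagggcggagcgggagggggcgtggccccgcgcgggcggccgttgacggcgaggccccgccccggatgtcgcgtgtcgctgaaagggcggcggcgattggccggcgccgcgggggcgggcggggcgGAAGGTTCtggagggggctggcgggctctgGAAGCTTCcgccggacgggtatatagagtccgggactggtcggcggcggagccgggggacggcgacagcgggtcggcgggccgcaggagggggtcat
In CHORDC1 the run of alternating units began at position -60 from the start and held 3 overlapping matches. In DNAJA1 the match began at position 4, inside the transcribed part, and in DNAJB6 at position -131. The DNAJB1 window shown held 2 shorter matches. Its windows at other starts, chr19:14529222-14529521 and chr19:14517888-14518187, held 0 and 1.

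A gene was counted when any of its windows held a match. Matches of 3 units were found in 3 of the 34 members, or 8.82%, and in 0.608% of the 27305 genes with a window. The shorter form was found in 11 of the 34 members (32.4%) and in 16.2% of all genes. Among the 8 members called higher below that had a window, 6 held the shorter form, namely BAG2, CHORDC1, DNAJA1, DNAJB1, STIP1 and TCP1, while DNAJB5 and PTGES3 did not. Among the 26 members that were not called, 5 held it (CCT2, CCT4, DNAJA4, DNAJB4 and DNAJB6). In the cytosolic heat shock proteins, 9 of 12 genes held the shorter form and 4 held 3 units. These matches describe the letters of the windows, were not tested, and say nothing about whether a factor was bound.

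Of the 39 members, 9 rose with SAM and none fell (edgeR's quasi-likelihood test, Benjamini-Hochberg adjusted p under 0.05). The 9 were the J-domain proteins DNAJA1, DNAJB1 and DNAJB5, the HSP70 cofactor BAG2, the HSP90 cochaperones FKBP4, CHORDC1, STIP1 and PTGES3, and the CCT subunit TCP1. This was 23.1% of the members, against 5.19% of all tested genes called higher (795 genes) and 5.24% called lower (803 genes). Scaled by library totals only, 608 genes were higher and 961 lower, and 8 members were higher. Among genes with a mean of at least 25 CPM, 6.46% were called higher and 5.06% lower, and of the 36 members at that level 8 were called higher and 0 lower. At an unadjusted p under 0.05, 19 members were higher and 0 lower. Of all 15312 tested genes, 2353 were higher and 2325 lower at that cut, which is also the background for the further lists below. DESeq2 called 12 members higher and limma voom 10, and both called 0 lower. Over all genes DESeq2 called 1005 higher and 890 lower, and limma voom 792 and 884.

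All SAM libraries lay above all control libraries in 23 of the 39 members, or 59.0%, where 17.9% of all tested genes showed that order. The opposite order held for 0 members and for 18.8% of all genes. The log2 fold change was above 0 in 35 members, against 49.1% of all genes, and its median was 0.21 over the members and -0.0072 over all genes. The changes were small, from -0.07 for DNAJB2 to 0.78 for DNAJA1. By family the medians were 0.36 for HSP90 cochaperones, 0.25 for CCT, 0.13 for J-domain proteins and 0.13 for HSP70 cofactors.

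**Figure D1:**
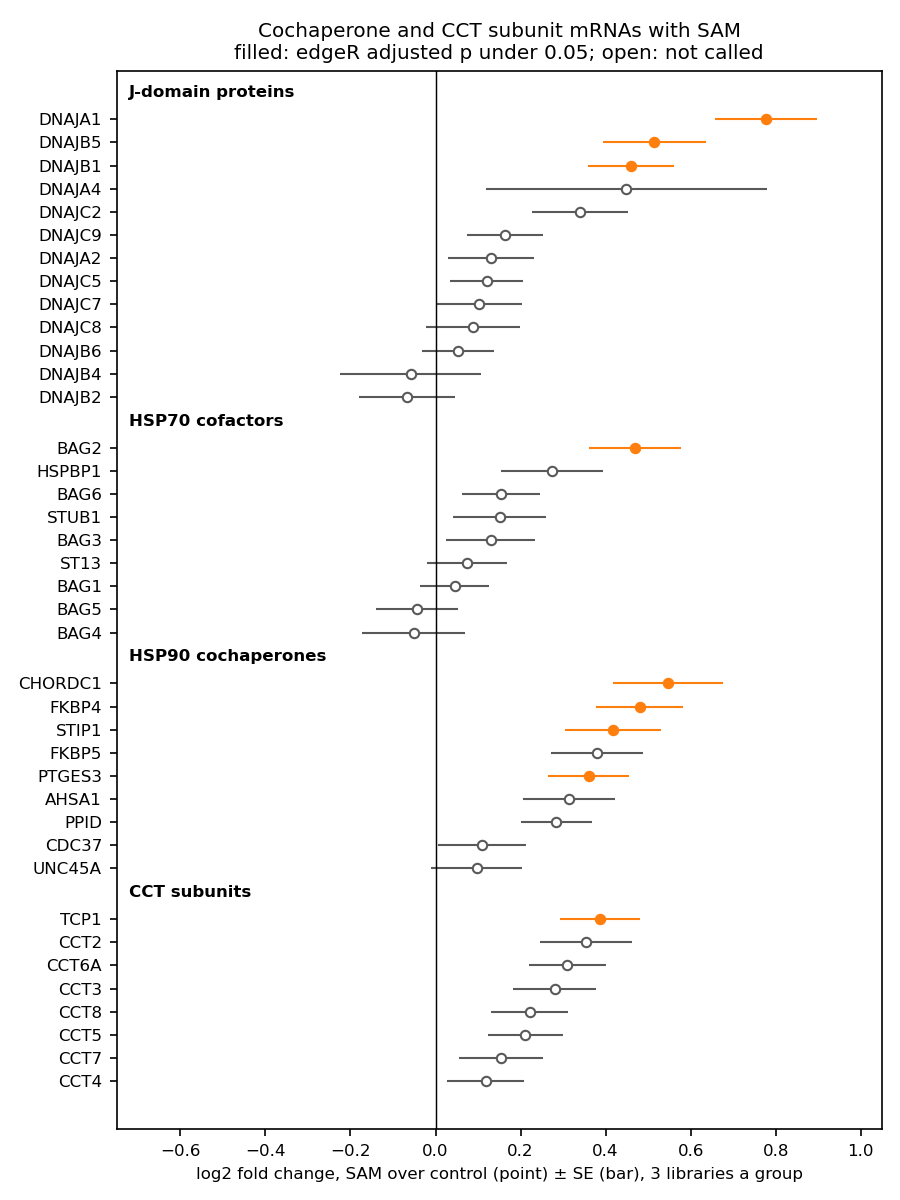
Log2 fold change of SAM over control (horizontal axis) for the 39 genes (vertical axis) in 4 families, with bars for ± 1 SE from the edgeR fit on 3 libraries a group. Filled orange points mark the 9 genes called higher, and open points the other 30, of which 4 lie below 0.

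The number of calls depended on single libraries. Without control 1, 2 and 3 it was 1, 1 and 0 members, and without SAM 1, 2 and 3 it was 1, 17 and 14. Without both control 1 and SAM 2, 4 members were called higher. Calls over all genes moved in the same fits, with 61 to 1661 called higher when 1 library was left out. The median log2 fold change of the members stayed between 0.16 (without SAM 3) and 0.25 (without SAM 2), and 0 members were called lower in each of these fits.

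DNAJA1 (ENSG00000086061, chromosome 9, positions 33025211 to 33039907 in GRCh38), a general J-domain partner of HSC70, showed the largest change of the 39. Its level was 107, 109 and 105 CPM in the controls and 216, 159 and 175 CPM with SAM. The lowest SAM library lay well above the highest control, and the spread was 1.98 CPM (SD) in controls and 29.6 CPM with SAM. This was a log2 fold change of 0.78 (SE 0.12, adjusted p = 0.00746, n = 3 a group, edgeR). The log2 fold change was 0.64 to 0.87 when 1 library was left out. Among the 17 alternatives the call was lost only without control 3 (adjusted p = 0.0674), and the adjusted p ran from 4.49e-09 to 0.0674.

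DNAJB1 (ENSG00000132002, chromosome 19, positions 14514770 to 14529770), the HSP40 that is known for its induction by heat, rose by a smaller amount. It was at 147, 159 and 153 CPM in the controls and 223, 187 and 221 CPM with SAM, a log2 fold change of 0.46 (SE 0.10, adjusted p = 0.0226, edgeR). The groups did not overlap, and SAM 2 was the lowest treated library. DNAJB1 overlaps TECR on the opposite strand, whose log2 fold change was 0.30 (adjusted p = 0.185, edgeR). No source used here states whether counting used the strand, so reads from the shared stretch cannot be told apart.

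DNAJB5, a close relative of DNAJB1, rose too. Its level went from 10.5, 10.7 and 12.3 CPM to 16.1, 14.9 and 17.0 CPM, a log2 fold change of 0.51 (SE 0.12, adjusted p = 0.0291, edgeR). The groups did not overlap. Leaving out control 1, 2 or 3 or SAM 1 ended the calls of DNAJB1 and DNAJB5 (adjusted p at most 0.129 and 0.119), while their log2 fold changes in these fits were 0.41 to 0.49 and 0.48 to 0.59. DNAJB5 was also not called without both control 1 and SAM 2 (adjusted p = 0.0720). Over the 17 alternatives the adjusted p ran from 0.000928 to 0.129 for DNAJB1 and from 0.00857 to 0.119 for DNAJB5.

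The other 10 J-domain proteins did not pass. DNAJC2, a factor of the ribosome-associated complex, was at 35.5, 32.3 and 35.0 CPM in controls and 50.3, 39.5 and 39.7 CPM with SAM, without overlap (log2 fold change 0.34, SE 0.11, adjusted p = 0.0795, edgeR). It was called in 4 of 17 alternatives, among them without SAM 2 and without SAM 3. DNAJC9, a histone cochaperone of replicating cells, was at 92.8, 88.5 and 92.6 CPM in controls and 107, 99.7 and 101 CPM with SAM (log2 fold change 0.16, adjusted p = 0.242, edgeR).

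DNAJA2, the close paralogue of DNAJA1, differed far less than it, with 71.5, 74.9 and 71.9 CPM in controls and 87.8, 72.0 and 79.0 CPM with SAM, and here the groups overlapped (log2 fold change 0.13, SE 0.10). The difference between both paralogues was not tested. DNAJC5, the cysteine string protein of secretory vesicles, had a log2 fold change of 0.12 without overlap of the groups, DNAJC7, a protein with tetratricopeptide repeats that binds HSP70 and HSP90, 0.10, and DNAJC8, which associates with the spliceosome, 0.09. DNAJB6, a suppressor of aggregation, lay between 125 and 129 CPM in controls and between 130 and 132 CPM with SAM (log2 fold change 0.05, SE 0.09), so the groups did not overlap although the difference was small. DNAJB2 and DNAJB4 were at -0.07 and -0.06. DNAJA4 had 82 counts in the 6 libraries together, at 0.603 ± 0.243 CPM in controls and 0.844 ± 0.145 CPM with SAM (SD, n = 3), and a difference was not detectable at this depth (log2 fold change 0.45, SE 0.33).

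**Figure D2:**
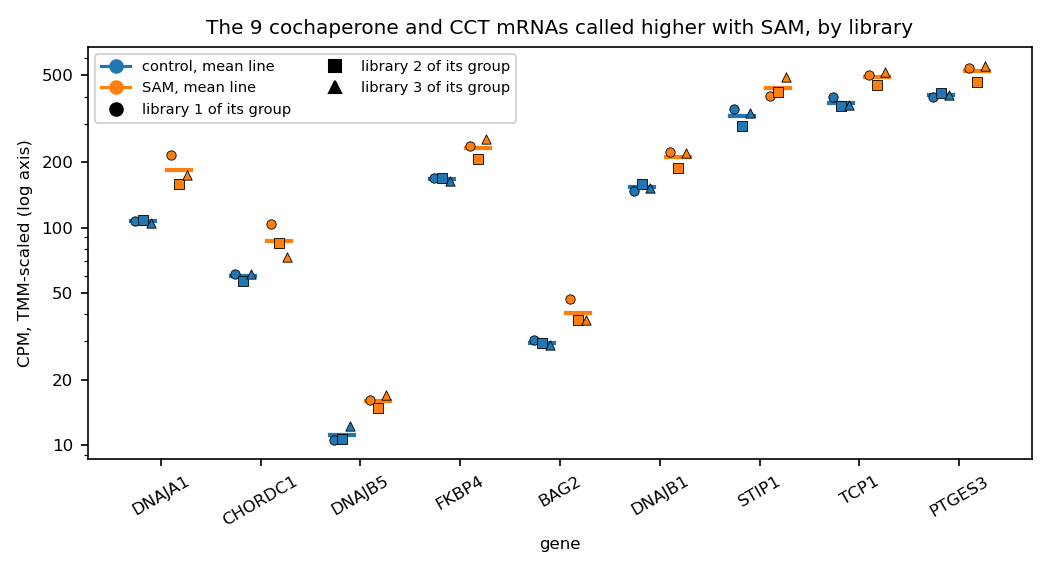
Level in CPM (vertical, log axis) of the 9 genes called higher with SAM, 1 gene per column. Blue marks controls and orange marks SAM, with symbols for libraries 1 to 3 of each group and lines for group means. DNAJA1 averages 107 CPM in controls and 183 CPM with SAM, and in each of the 9 genes the groups do not overlap.

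Among the 9 cofactors of HSP70, BAG2 (ENSG00000112208, chromosome 6, positions 57172326 to 57189833) passed by itself. BAG2 releases nucleotide from HSP70 and inhibits the ubiquitin ligase STUB1, also called CHIP. Its level was 30.4, 29.5 and 28.7 CPM in controls and 47.0, 37.5 and 37.6 CPM with SAM. SAM 1 was the highest library, and the groups did not overlap (log2 fold change 0.47, SE 0.11, adjusted p = 0.0274, edgeR). Leaving out control 1, 2 or 3 or SAM 1 ended the call (adjusted p at most 0.151), as did leaving out both control 1 and SAM 2 (adjusted p = 0.0554). The log2 fold change was 0.34 to 0.54 with 1 library left out. Over the 17 alternatives the adjusted p ran from 0.00127 to 0.151. RAB23, which overlaps BAG2 on the opposite strand, had a log2 fold change of -0.11.

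HSPBP1, another exchange factor of HSP70, was at 82.8, 91.5 and 88.5 CPM in controls and 101, 93.1 and 124 CPM with SAM (log2 fold change 0.27, SE 0.12, adjusted p = 0.154, edgeR). It was called in 1 of 17 alternatives, without SAM 2. BAG6, which guards tail-anchored and mislocalised proteins, was at 332, 317 and 332 CPM in controls and 334, 367 and 389 CPM with SAM (log2 fold change 0.15, adjusted p = 0.283, edgeR). In both genes the lowest SAM library lay just above the highest control.

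BAG3, the BAG protein of selective autophagy and a known heat shock gene, was not among the genes called higher. It was at 136, 125 and 126 CPM in controls and 126, 142 and 156 CPM with SAM, so that the groups overlapped (log2 fold change 0.13, SE 0.10, adjusted p = 0.424, edgeR). The ligase STUB1 had a log2 fold change of 0.15 (SE 0.11), ST13, also called HIP, which slows the release of clients, 0.07, and BAG1 0.05. BAG5 and BAG4 were at -0.04 and -0.05. In these last 5 genes the groups overlapped too. STUB1 overlaps JMJD8 on the opposite strand, which rose (log2 fold change 0.38, adjusted p = 0.0376, edgeR).

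HSP90 cochaperones held the most calls, 4 of 9, and all 9 had a log2 fold change above 0. FKBP4 (ENSG00000004478, chromosome 12, positions 2794953 to 2805423), the immunophilin FKBP52 that couples steroid receptors to HSP90, rose from 169.5, 169 and 163 CPM to 236, 206 and 256 CPM. SAM 2 was again the lowest treated library, and the groups did not overlap. The log2 fold change was 0.48 (SE 0.10, adjusted p = 0.0209, edgeR).

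CHORDC1 (ENSG00000110172, chromosome 11, positions 90201160 to 90223364), which encodes the stress-inducible HSP90 cochaperone morgana, had the largest change of this family. It rose from 60.8, 56.9 and 61.5 CPM to 104, 84.5 and 72.8 CPM, a log2 fold change of 0.55 (SE 0.13, adjusted p = 0.0295, edgeR). The 3 treated libraries were spread widely, with SAM 3 closest to the controls.

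STIP1 (ENSG00000168439, chromosome 11, positions 64185272 to 64204543) rose from 352, 292 and 336 CPM to 400.3, 419 and 490 CPM, a log2 fold change of 0.42 (SE 0.11, adjusted p = 0.0440, edgeR). PTGES3 (ENSG00000110958, chromosome 12, positions 56663341 to 56688408) rose from 396, 415 and 409 CPM to 542, 468 and 554 CPM, a log2 fold change of 0.36 (SE 0.10, adjusted p = 0.0424, edgeR). In both genes the groups did not overlap, and both adjusted p-values lay close to the threshold. The pseudogene PTGES3P1 held 386 counts against 50843 for PTGES3.

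FKBP4, CHORDC1, STIP1 and PTGES3 were not called without control 1, 2 or 3 or SAM 1. Their adjusted p reached 0.126, 0.125, 0.167 and 0.186 in these fits, with log2 fold changes of at least 0.46, 0.39, 0.34 and 0.33. Without both control 1 and SAM 2, FKBP4 stayed called, and CHORDC1 (adjusted p = 0.0643), STIP1 (0.0626) and PTGES3 (0.0625) did not. With library totals only, PTGES3 was not called (adjusted p = 0.0587). Over the 17 alternatives the smallest adjusted p was 0.000581, 0.000159, 0.00575 and 0.00827 for these 4 genes.

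Of the other 5 HSP90 cochaperones, 3 came close to the threshold. FKBP5, the immunophilin FKBP51 that is induced by glucocorticoids, was at 30.6, 27.4 and 29.5 CPM in controls and 42.2, 38.1 and 33.1 CPM with SAM (log2 fold change 0.38, SE 0.11, adjusted p = 0.0525, edgeR). PPID, the cyclophilin of receptor complexes, was at 46.7, 46.2 and 45.4 CPM in controls and 58.4, 53.2 and 56.5 CPM with SAM (log2 fold change 0.28, SE 0.08, adjusted p = 0.0565, edgeR). AHSA1 was at 88.6, 89.5 and 87.4 CPM in controls and 113, 95.8 and 122 CPM with SAM (log2 fold change 0.31, SE 0.11, adjusted p = 0.0863, edgeR). The groups did not overlap in these 3 genes, which were called in 4, 3 and 1 of the 17 alternatives.

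CDC37 and UNC45A, a cochaperone that folds myosin, were the members of this family with overlapping groups. CDC37 was at 387, 408 and 413 CPM in controls and 429.5, 385 and 487.5 CPM with SAM (log2 fold change 0.11, SE 0.10), and UNC45A had a log2 fold change of 0.10 (SE 0.11). CDC37 overlaps PDE4A on the opposite strand, which rose (log2 fold change 0.49, adjusted p = 0.0231, edgeR).

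The 8 CCT subunits all had a log2 fold change above 0, and TCP1 (ENSG00000120438, chromosome 6, positions 159778498 to 159789749), the alpha subunit, passed. It rose from 397, 362 and 365 CPM to 499.8, 452 and 518 CPM, a log2 fold change of 0.39 (SE 0.09, adjusted p = 0.0310, edgeR). Leaving out control 1, 2 or 3 or SAM 1 ended the call (adjusted p at most 0.176), and the log2 fold change was 0.35 to 0.44 with 1 library left out (adjusted p 0.00332 to 0.176 over the 17 alternatives). TCP1 overlaps ACAT2 on the opposite strand, whose log2 fold change was 0.26 (adjusted p = 0.122, edgeR).

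CCT6A, the zeta subunit, was at 360, 312 and 340 CPM in controls and 411, 416 and 428 CPM with SAM (log2 fold change 0.31, SE 0.09, adjusted p = 0.0561, edgeR). CCT2, the beta subunit, was at 324, 348 and 321 CPM in controls and 481, 375 and 412 CPM with SAM (log2 fold change 0.35, SE 0.11, adjusted p = 0.0645, edgeR). Each was called in 5 of 17 alternatives. CCT3, the gamma subunit, was at 346, 339 and 337 CPM in controls and 410.2, 375 and 455 CPM with SAM (log2 fold change 0.28), and CCT8, the theta subunit, at 352, 355 and 350.4 and at 421, 378 and 434.5 CPM (0.22). CCT5, the epsilon subunit, was at 702, 705 and 714.5 CPM in controls and 801, 774 and 881 CPM with SAM (0.21). In these 3 the groups did not overlap either. CCT7, the eta subunit, was at 476, 482 and 477 CPM in controls and 526, 480 and 590 CPM with SAM (0.15), and CCT4, the delta subunit, at 325, 341 and 335 and at 357, 340.1 and 389.5 CPM (0.12). SAM 2 lay within the control range in both, so that their groups overlapped.

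Levels of different subunits were compared per kb of the canonical GENCODE transcript. In the controls CCT7 was highest with 259 ± 1.799 CPM per kb, followed by CCT5 (215 ± 1.96) and CCT8 (190 ± 1.23, SD, n = 3). CCT2 (173 ± 7.87), CCT3 (172 ± 2.50) and TCP1 (159 ± 8.16) came next, and CCT4 (140.5 ± 3.40) and CCT6A (130.5 ± 9.24) were lowest. The control libraries of CCT2 and CCT3 overlapped, as did those of CCT4 and CCT6A, and the other neighbours in this order did not. The subunits form 1 complex with equal numbers of each, and their mRNA levels per kb spanned a range of 131 to 259 CPM per kb in the controls.

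**Figure D3:**
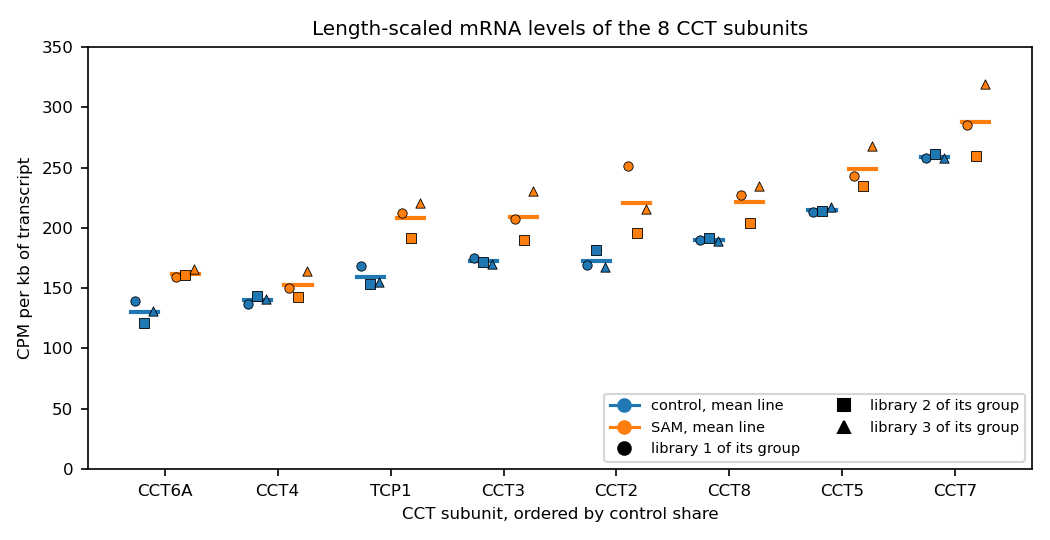
CPM per kb of transcript (vertical axis) for the 8 CCT subunits, 1 per column. Blue marks controls and orange marks SAM, with symbols for libraries 1 to 3 of each group and lines for group means. CCT7 averages 259 CPM per kb in controls and 288 CPM per kb with SAM, and SAM 2 lies at the control level for CCT7 and CCT4.

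The shares of some subunits within the summed CCT level per kb differed slightly between the groups. TCP1 made up 11.1% ± 0.498 of the sum in controls and 12.2% ± 0.0597 with SAM (SD, n = 3). CCT4 made up 9.76% ± 0.285 and 8.91% ± 0.222, and CCT7 ranged from 17.8% to 18.15% in controls and from 16.4% to 17.6% with SAM. CCT8 ranged from 13.1% to 13.3% in controls and from 12.9% to 13.08% with SAM, just below. In these 4 subunits the groups did not overlap, while in CCT2, CCT3, CCT5 and CCT6A they did. The shares of a library depend on each other, since they add up to the whole, and no test of them was made. The 8 subunits together held 3256 ± 23.5 CPM in controls and 3869 ± 262 CPM with SAM, a ratio of 1.19. HSP90 cochaperones had a ratio of 1.24, J-domain proteins 1.18 and HSP70 cofactors 1.10 in their summed CPM.

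The treated libraries differed among themselves in a regular way. SAM 2 was the lowest of the 3 treated libraries in 26 of the 39 members, where it was the lowest in 35.0% of all tested genes. SAM 1 was the highest in 15 members with a median GC content of 42.5%, among them DNAJA1, CHORDC1, BAG2 and FKBP5, and SAM 3 in 22 members with a median GC content of 51.3%, among them FKBP4, STIP1, PTGES3 and 7 of the 8 CCT subunits. Of all tested genes, SAM 1 was the highest in 27.3% and SAM 3 in 39.3%. The log2 ratio of SAM 3 over SAM 1 went from -0.57 in DNAJB4 (32.7% GC) to 0.32 in DNAJB2 (59.1% GC). Across the 39 genes, which share these 2 libraries and are no replicates, Pearson's r with GC content was 0.78 and Spearman's rho 0.81. Across 14881 tested genes the same coefficients were 0.43 and 0.52.

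For the log2 fold change of the members against GC content, Pearson's r was -0.11 and Spearman's rho -0.10 over the 39 genes. When the trend on transcript length and GC content was removed from each library, 14 members were called higher and 0 lower, which added DNAJC2, FKBP5, PPID, CCT2 and CCT6A. The median of the members was then 0.18, and that of all genes 0.02.

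**Figure D4:**
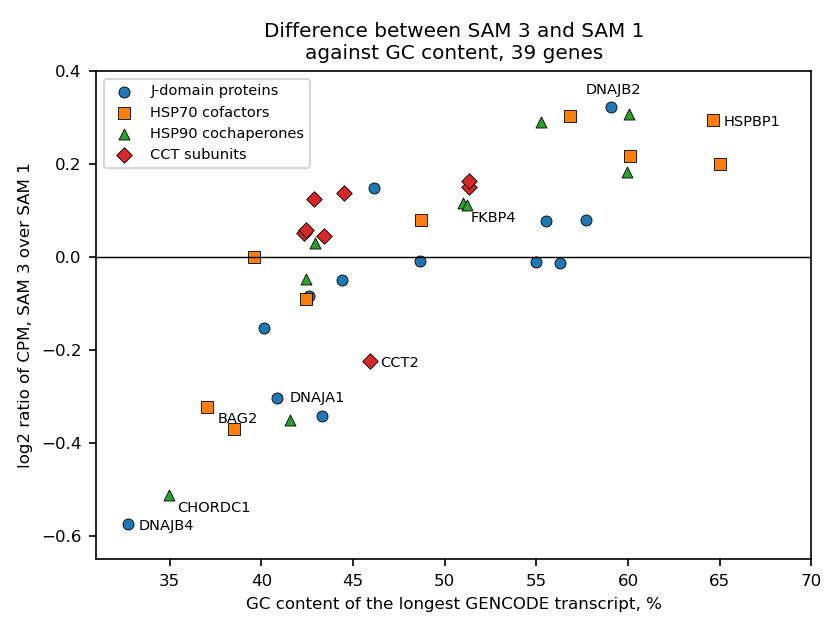
Log2 ratio of CPM in SAM 3 over SAM 1 (vertical axis) against the GC content of the longest GENCODE transcript in percent (horizontal axis) for the 39 genes, with a symbol for each of the 4 families. The ratio runs from -0.57 for DNAJB4 at 32.7% GC to 0.32 for DNAJB2 at 59.1% GC.

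The chaperones that these cofactors serve were listed alongside. Of 14 cytosolic HSP70, HSP110, HSP90 and small heat shock proteins, 11 were tested, 6 rose and none fell (edgeR, 8 higher and 0 lower at an unadjusted p under 0.05, with 7 higher by DESeq2, 6 by limma voom and 0 lower by both), with a median log2 fold change of 0.45. HSPA8, the constitutive HSP70, rose from 938, 960 and 892 CPM to 2242, 1750 and 1874 CPM. HSPA1A and HSPA1B, the inducible HSP70 genes, had log2 fold changes of 1.15 and 0.98, and HSPA2, a testis-rich form, had 1.19. HSPA1A and HSPA1B are near-identical copies, so the division of reads between them is uncertain. Of the HSP90 genes, HSP90AA1 rose from a mean of 1861 to 2540 CPM (log2 fold change 0.45, adjusted p = 0.0237, edgeR). HSP90AB1 was not called (log2 fold change 0.21, adjusted p = 0.218, edgeR). The listed heat shock proteins together held 5493 ± 15.6 CPM in controls and 7692 ± 514 CPM with SAM, a ratio of 1.40, against 6979 ± 49.0 and 8281 ± 537 CPM for the 39 cofactors and CCT subunits, a ratio of 1.19. Most of the rise in the summed heat shock proteins came from HSPA8 (means of 930 and 1955 CPM) and HSP90AA1, so the ratio does not describe each listed gene. The difference between the ratios was not tested. HSF1, the heat shock factor, had a log2 fold change of 0.21 (adjusted p = 0.168, edgeR), and none of the 4 genes in the list of heat shock factors and HSBP1 passed (0 at an unadjusted p under 0.05, 0 by DESeq2 and limma voom).

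Proteins that hand clients to CCT, and the clients themselves, mostly had log2 fold changes above 0. None of 9 prefoldin subunits and CCT assistants passed by edgeR (median 0.24, above 0 in 8, 1 higher at an unadjusted p under 0.05, 0 by DESeq2 and limma voom). All SAM libraries lay above all controls in 1 of these 9. Of 15 tubulins, actins and tubulin cofactors, 2 rose and 1 fell, with a median of 0.21 and 14 above 0. All SAM libraries lay above all controls in 7 of them and below in 1, against 17.9% and 18.8% of all tested genes. TUBB4B, a beta-tubulin, rose from 389, 392 and 375 CPM to 570.5, 474 and 652 CPM (log2 fold change 0.55, SE 0.12, adjusted p = 0.0214, edgeR), and TUBB6 rose by 0.43. TUBA1A, an alpha-tubulin, fell from 65.5, 75.9 and 67.0 CPM to 38.6, 37.6 and 54.3 CPM (log2 fold change -0.68, adjusted p = 0.0203, edgeR). ACTB and ACTG1 had 0.19 and 0.21. Tubulin paralogues are much alike, so the division of reads between them is uncertain.

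Of 19 further cochaperones of HSP90 and HSP70, 2 rose and none fell (edgeR, 7 higher and 3 lower at an unadjusted p under 0.05, with 1 lower by DESeq2 and 0 by limma voom). TOMM34, which links HSP70 and HSP90 to mitochondrial import, rose from 139, 140.4 and 145 CPM to 188, 182 and 220 CPM, and SGTA, a partner of BAG6, rose from 74.5, 81.2 and 80.5 CPM to 105, 102 and 122.5 CPM. Of 18 further J-domain proteins none rose and DNAJC18 fell by 0.57 (edgeR, 0 higher and 3 lower at an unadjusted p under 0.05, 0 higher by DESeq2 and limma voom). Their median was -0.14, and that of the listed J-domain proteins was 0.13. This difference was not tested, and both lists were chosen with earlier results of these data known.

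The chaperone systems of other compartments were listed as well. Of 13 mitochondrial chaperones and cochaperones, GRPEL2, a nucleotide exchange factor of mitochondrial HSP70, fell by 0.47 (adjusted p = 0.0170, edgeR) and none rose (3 higher at an unadjusted p under 0.05, 1 by DESeq2, 0 by limma voom). The log2 fold change was above 0 in 11 of these 13, with a median of 0.17, against 0.13 in the listed J-domain proteins. Of 11 ER chaperones and cochaperones, SDF2L1, part of an ER chaperone complex, rose from 23.0, 27.4 and 26.7 CPM to 41.8, 34.5 and 43.3 CPM, and none fell (1 at an unadjusted p under 0.05, 0 by DESeq2 and limma voom). The ER list had a median of 0.01, with 6 of the 11 above 0. Among the steroid receptors bound by FKBP4, FKBP5 and PTGES3, NR3C1, the glucocorticoid receptor, was at 79.1, 76.0 and 75.8 CPM in controls and 61.8, 67.5 and 39.1 CPM with SAM (log2 fold change -0.46, adjusted p = 0.109, edgeR), and 0 of the 3 tested receptors passed (1 lower at an unadjusted p under 0.05, 0 by DESeq2 and limma voom).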

How the data were processed

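The authors deposited raw counts per Ensembl gene for 6 libraries. They also deposited a normalised signal, in which the counts of a library share 1 divisor (0.5625 to 1.75). Per the labels, TruSeq libraries were read on a HiSeq2000, and the submitters' processing notes name STAR 2.4, HTSeq 0.6.1 and DESeq2 1.8, and hg19 and mm10, without roles. Of 51488 identifiers shared with GENCODE release 44 99.9% overlap their GRCh38 position, so the printed coordinates belong to GRCh38.

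The counts were tested with edgeR 4.0.16 (R 4.3.3): filterByExpr, TMM scaling, glmQLFit and glmQLFTest, with treatment as the only term and two-sided p-values adjusted over all 15312 tested genes. The same steps were tested on simulated data. SEs were obtained from the size of the log2 fold change over the root of its F statistic, and means carry SDs. The members and lists were chosen with earlier results of these data known. Every library value is given for called members, for DNAJB1, DNAJA1 and FKBP4 and for the 2 uncalled members of each family with the smallest p, and the CCT subunits are given one by one because they form 1 complex. DNAJA2, BAG3, AHSA1 and CDC37 are shown so too, chosen after their values were seen. The values of NR3C1, HSF1, HSP90AA1, HSP90AB1, ACTB and ACTG1 and of the genes overlapping a member were chosen in the same way. Apart from these, up to 4 called genes are named per further list.

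Alternatives were RLE factors, library totals only, no filter, a minimum of 1 CPM in 3 libraries, DESeq2 1.42.0, robust dispersion, limma 3.58.1 (voom, and a trend on the deposited normalised values with 1 added before the log2), a replicate block, leaving out each library in turn, control 1 and SAM 2 left out, an adjusted p under 0.01 and, added after seeing the data, removal of length and GC trends. Libraries of a group differed by 4.57 to 55.2 times counting noise (chi-square per degree of freedom), so none was merged. Figures were drawn with matplotlib 3.10.9.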

Additional observations from a re-analysis of the deposited data

How the results depend on the processing

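With RLE factors, robust dispersion, a minimum of 1 CPM in 3 libraries and the limma trend on the deposited normalised values, 9 members were called higher, and 0 were called lower in each alternative. At an adjusted p under 0.01, 126 genes were higher and 127 lower, with 1 member higher (1 J-domain protein, 0 HSP70 cofactors, 0 HSP90 cochaperones and 0 CCT subunits). With control 1 and SAM 2 left out together, 446 genes were higher and 508 lower, with 4 members higher (0 HSP70 cofactors and 1 HSP90 cochaperone). With no filter, 1402 genes were higher and 1341 lower, with 2 CCT subunits. With the length and GC trend removed, 1609 genes were higher and 1272 lower, with 14 members and 3 CCT subunits. CCT subunits called higher numbered 3 by DESeq2 and 2 by limma voom. With 1 library left out, 61 to 1661 genes were higher and 78 to 1572 lower, with 0 to 17 members, 0 to 4 J-domain proteins, 0 to 2 HSP70 cofactors, 0 to 6 HSP90 cochaperones and 0 to 5 CCT subunits. These fits hold fewer samples, and the cause of the moves was not tested otherwise.

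Deviations of same-numbered libraries from their group means correlated at -0.17, -0.40 and 0.13 over genes. Control 1 with SAM 2 gave 0.45, and control 2 with SAM 3 gave 0.30. Differences in library composition and GC trend also enter these values, so they cannot decide whether the numbers pair the samples. With the replicate number as a block 440 genes were higher and 588 lower, with 4 members (1 J-domain protein, 2 HSP90 cochaperones and 0 CCT subunits). The members not called there were DNAJB1 (adjusted p = 0.0585), DNAJB5 (0.0558), STIP1 (0.0793), PTGES3 (0.117) and TCP1 (0.0869), by edgeR.

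Uncalled members changed sign in 9 cases. BAG5 reached 0.010 without control 1, 0.017 without both control 1 and SAM 2 and 0.055 with the length and GC trend removed, DNAJB4 0.0032 without SAM 2 and 0.072 without SAM 3, and BAG4 0.069 without SAM 3 and 0.036 with the trend removed. With 1 library left out, DNAJB4 ran from -0.27, BAG4 from -0.12, BAG5 from -0.12 and UNC45A up to 0.15. UNC45A reached -0.0038 without SAM 3 and CDC37 -0.0088 with the trend removed. DNAJA4 did not pass the filter of 1 CPM and has no value there. Counting noise limits mainly DNAJA4, since 3 counts correspond to 0.103 CPM in SAM 1 and 0.322 CPM in control 1.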
